A study of Homo sapiens with 4 samples.

Results

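The E2F transcription factors and the pocket proteins RBL1 and RBL2, which hold E2F factors in check, were followed across 4 expression arrays of Hs746T cells. All probes of E2F1 to E2F8, RBL1 and RBL2 were taken by their RefSeq accessions, which gave 15 probes for 10 genes. They belong to 18755 named genes that had a probe with a value on all 4 arrays. Hs746T is an established gastric carcinoma line that carries both an exon-skipping mutation and an amplification of MET, a receptor tyrosine kinase, and every array shares this background. The first array held cells given the solvent DMSO, the next cells given the MET kinase inhibitor PHA665752, another cells given a scrambled siRNA (sc siRNA) and the last cells given MET siRNA, with 1 single-colour Agilent human 44K array for each condition. The transfected cells were harvested 48 h after transfection, with a single MET siRNA sequence. The dose and duration of PHA665752 used for the array are not given in the sources used here.

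E2F factors bind DNA next to genes needed for DNA synthesis and division, mostly as pairs with a DP protein. E2F1, E2F2 and E2F3 are known as activators, E2F4 and E2F5 as repressors that act together with the pocket proteins RBL1 and RBL2, E2F6 as a repressor that works with Polycomb proteins and without pocket proteins, and E2F7 and E2F8 as atypical repressors that need no DP partner. In resting cells RBL2 and E2F4 or E2F5 sit on cell cycle promoters with the MuvB complex. When growth factor receptors raise cyclin D and cyclin E kinase activity, the pocket proteins are phosphorylated and released, and several genes of the family, E2F1 among them, are themselves switched on by E2F.

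The stretches of DNA just upstream of the member genes are shown because several promoters of the family are themselves known targets of E2F. RefSeq promoter windows of build GRCh38.p14, from 250 bases before to 50 bases after a transcript start, were held for 8 of the 10 members (10 windows), and E2F5 and E2F8 had none. They were searched on both strands for TTTCCCGC, TTTCGCGC, TTTGCCGC and TTTGGCGC, the 4 forms of the E2F consensus with 3 T residues. Any of these stood in 3.31% of 35116 promoter windows of the same length (1.63%, 0.515%, 0.607% and 0.652% for the single forms in that order), and 0.145% held 2 or more matches. Among the members, windows of E2F1, E2F2, E2F3 and RBL1 held a match, and those of E2F4, E2F6, E2F7 and RBL2 did not. The 150 bases before the start are printed below from 5′ to 3′ along the strand of the gene, with matches in capitals, for E2F1 (chr20:33686386-33686535, minus strand), E2F2 (chr1:23531234-23531383, minus strand), E2F3 (chr6:20401729-20401878, plus strand), RBL1 (chr20:37095998-37096147, minus strand) and, as a member without a match, E2F7 (chr12:77065570-77065719, minus strand). All 5 stretches lie outside the transcript that begins at their right-hand end.
E2F1: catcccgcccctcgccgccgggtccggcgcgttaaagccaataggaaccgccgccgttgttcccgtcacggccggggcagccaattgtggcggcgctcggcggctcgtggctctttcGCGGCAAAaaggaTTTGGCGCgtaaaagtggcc
E2F2: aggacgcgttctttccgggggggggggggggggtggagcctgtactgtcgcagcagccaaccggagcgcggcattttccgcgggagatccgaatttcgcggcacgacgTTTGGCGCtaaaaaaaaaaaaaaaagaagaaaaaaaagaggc
E2F3: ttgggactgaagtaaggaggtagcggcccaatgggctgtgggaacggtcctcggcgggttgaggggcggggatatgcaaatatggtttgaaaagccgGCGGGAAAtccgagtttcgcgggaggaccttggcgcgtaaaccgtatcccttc
RBL1: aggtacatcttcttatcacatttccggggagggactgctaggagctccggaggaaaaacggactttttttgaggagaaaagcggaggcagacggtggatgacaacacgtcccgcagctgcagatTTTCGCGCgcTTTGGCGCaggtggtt
E2F7: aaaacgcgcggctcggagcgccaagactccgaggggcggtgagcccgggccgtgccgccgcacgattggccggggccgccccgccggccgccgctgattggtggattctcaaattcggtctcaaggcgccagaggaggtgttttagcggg

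In E2F1 the matches ran from base -33 to -26, where TTTGCCGC lies on the opposite strand, and from -20 to -13, where TTTGGCGC lies on the strand of the gene. In RBL1 they ran from -26 to -19 (TTTCGCGC) and from -16 to -9 (TTTGGCGC), and no match overlapped another. E2F2 had a single TTTGGCGC from -42 to -35. E2F3 had TTTCCCGC on the opposite strand from -53 to -46 in the window of its upstream start, and no match in the window of its other start. A match is a run of letters, and whether any E2F protein was bound there was not measured.

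**Figure D1:**
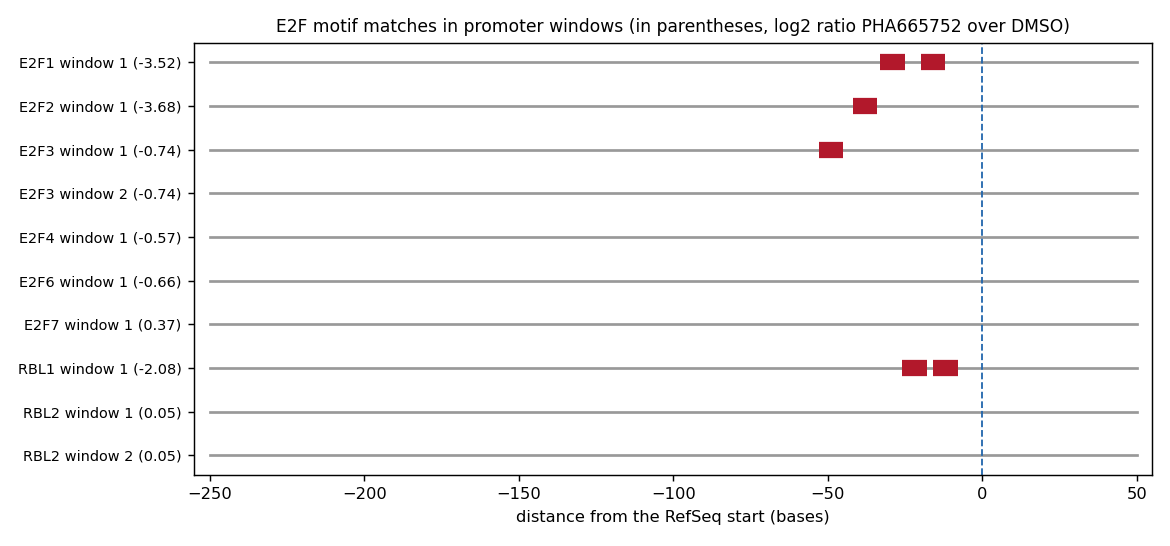
Position of E2F motif matches (red blocks) in the 10 promoter windows of the 8 members that have one, as distance in bases from the RefSeq start (dashed line), with the log2 ratio of PHA665752 over DMSO of the member in parentheses. The 6 matches lie between -53 and -9, in 1 window each of E2F1, E2F2, E2F3 and RBL1.

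Levels are given as processed signal, the linear intensity of a spot after background subtraction, which is comparable between arrays only after scaling. Each log2 ratio was therefore taken after subtracting the 75th percentile of the array, and a gene with several probes is represented by the probe with the highest mean signal. With 1 array per condition there is no replicate error and no test, and "fell" and "rose" mean a ratio past 2-fold, which is a description of these arrays. The only error at hand is the noise between repeated spots of a probe, 0.0768 for a log2 ratio of single spots, which leaves out differences between cultures. The DMSO and sc siRNA arrays, both controls, were set against each other as a yardstick, and this pair shares the DMSO array with the inhibitor pair and the sc siRNA array with the siRNA pair. Between 61.1% and 68.2% of the probes were well above background on an array, and all 15 probes of the members were so on all 4 arrays.

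MET itself, a check of the labels, had a processed signal of 221451.5 on the DMSO array, 100491.9 with PHA665752, and 190009.5 with sc siRNA against 77853.5 with MET siRNA. Its log2 ratio was -1.33 for MET siRNA over sc siRNA and -0.93 for PHA665752 over DMSO, and the siRNA acts on the transcript while the inhibitor acts on the kinase. Of the markers of a gastric epithelial line, EPCAM and the keratins KRT8, KRT18 and KRT19 were well above background on all 4 arrays, with EPCAM between 1957.9 and 2708.6. CDH1, the epithelial cadherin, was dim (10.4 to 33), the gastric gene TFF1 was dim too (60.5 to 87.6), GKN1, another gastric gene, was not well above background on any array, and the mesenchymal CDH2 and FN1 were well above it on all 4. FN1 rose with PHA665752 (1061.5 with DMSO and 3563.5 with the inhibitor, a log2 ratio of 1.96). Of the leukocyte markers, CD3E was well above background on no array, and PTPRC (22.7 to 37.8) and CD14 (113.2 to 140.1) were dim but above it on all 4. The endothelial markers PECAM1, CDH5 and VWF were above background on all 4 as well, and PECAM1 (1846.0 with DMSO and 304.2 with PHA665752) fell together with the members below while VWF (30.9 and 182.4) rose. VWF was also past 2-fold higher in the siRNA pair (log2 ratio 1.13, from 35.9 to 81.1). Whether RNA of other cell types had a part in the results was not tested.

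PHA665752 was compared with DMSO to ask what blocking the kinase did to the family. E2F1 and E2F2, the atypical repressor E2F8 and the pocket protein RBL1 fell more than 2-fold, and no member rose by as much. Thus 4 of 10 members were lower past 2-fold, beside 8.04% of the 14322 genes with a ratio in this pair, and 0 of 10 were higher, beside 13.1%. The log2 ratio was below 0 for 8 members, compared with 45.1% of all genes, and the median of the members was -0.70 against 0.075 over all genes. Of all genes past 2-fold, 62% were higher, a share that became 42.5% under scaling to the 50th percentile, which moves every ratio of this pair by -0.25. The count of 4 members was the same under all other ways of processing tried, in which the 4 log2 ratios lay between -3.93 and -1.16 over their probes.

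E2F1, the activator best known for its part in entry into S phase and in apoptosis, was measured by a probe spotted 10 times (A_23_P80032, NM_005225). Its mean processed signal was 4015.7 on the DMSO array, 301.6 with PHA665752, and 1992.4 with sc siRNA against 2236.5 with MET siRNA. The PHA665752 array thus stood far below the other arrays, and the DMSO array was the highest. Single spots lay between 283.8 and 320.0 on the PHA665752 array and between 3674.5 and 4461.8 on the DMSO array, so the spots of the pair did not overlap. The SD between spots was 0.0512 to 0.0849 on the log2 scale, from 9 or 10 usable spots per array. The log2 ratio of PHA665752 over DMSO was -3.52, a fall of 11.5-fold, and E2F1 was the 29th lowest of the 14322 genes.

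E2F2, an activator of the same type, was measured by 1 spot (A_23_P408955, NM_004091). It had a processed signal of 1028.7 on the DMSO array, 69 with PHA665752, and 398.8 with sc siRNA against 557.6 with MET siRNA, the same order of arrays as for E2F1. The log2 ratio of PHA665752 over DMSO was -3.68, a fall of 12.9-fold (-2.96 under normexp background correction), and E2F2 was the 21st lowest gene.

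E2F3, the activator whose locus gives rise to several forms from alternative starts, did not share the size of this fall. Its stronger probe (A_23_P385034, NM_001949) gave 2690.7 on the DMSO array, 1391.3 with PHA665752, and 2249.1 with sc siRNA against 1596.8 with MET siRNA. Both treated arrays were below both controls. The log2 ratio of PHA665752 over DMSO was -0.74 (1.67-fold lower), at 12.8% of the genes counted from the lowest. The weaker probe (A_33_P3418516) gave 119.2, 51.9, 102.6 and 79.4 in the same order of arrays and a log2 ratio of -0.98, which passed 2-fold under scaling to the 50th percentile (-1.23), under quantile normalization and under scaling on the median of probes well above background, and was -0.48 under normexp background correction.

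The canonical repressors stayed within 2-fold. E2F4, the main E2F of resting cells (A_23_P152218, NM_001950), had a processed signal of 367.9 on the DMSO array, 213.8 with PHA665752, and 293.9 with sc siRNA against 300.3 with MET siRNA. Its log2 ratio of PHA665752 over DMSO was -0.57. E2F5, its closest relative (A_23_P31721, NM_001951), gave 798.8, 439.3, 745.2 and 573.9 on the same arrays, with a log2 ratio of -0.65. In both genes the PHA665752 array was the lowest of the 4. Neither ratio passed 2-fold in any way of processing tried, in which they reached -0.81 and -0.89.

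E2F6, the Polycomb-linked repressor, was read by 3 probes that gave close ratios. The strongest (A_23_P170774, NM_198256) had a processed signal of 2256.8 on the DMSO array, 1227.1 with PHA665752, and 1971.2 with sc siRNA against 1865.9 with MET siRNA. The log2 ratios of PHA665752 over DMSO were -0.66, -0.77 and -0.63 for the 3 probes, none past 2-fold. The weaker probes had signals of 333.7 to 661.3 and 115.4 to 232.1 over the arrays. Under the 50th percentile scaling the brighter of the weaker probes (A_32_P12610) reached -1.02. By the probes that represent them, E2F3, E2F4, E2F5 and E2F6 thus lay between -0.57 and -0.74 in this pair.

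The atypical repressors went apart. E2F7 (A_32_P210202, NM_203394) had a processed signal of 9122.3 on the DMSO array, 10178.0 with PHA665752, and 13306.1 with sc siRNA against 13096.3 with MET siRNA. Its DMSO array was the lowest, and both transfected arrays were the highest. The log2 ratio of PHA665752 over DMSO was 0.37, and that of the second probe (A_33_P3318661; 490.8, 486.7, 781.0 and 732.1 in the same order) was 0.20, which turned to -0.04 under the 50th percentile scaling. E2F8 (A_23_P35871, NM_024680), which pairs with E2F7 to hold down E2F1 itself, had 308.6 on the DMSO array, 56 with PHA665752, and 145.8 with sc siRNA against 199.8 with MET siRNA. This is the order of arrays seen for E2F1 and E2F2. The log2 ratio of PHA665752 over DMSO was -2.25, a fall of 4.75-fold, and -1.31 under normexp background correction. The difference between E2F7 and E2F8 came to 2.62, against a spot noise of 0.109 for a difference of ratios. Between the controls (sc siRNA over DMSO) it was already 1.63 in the same direction.

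The pocket proteins went apart in the same way. RBL1 (p107), itself an E2F target in cycling cells, was read by a stronger probe (A_23_P28733, NM_002895) with 1110.4 on the DMSO array, 225.8 with PHA665752, and 687.5 with sc siRNA against 706.1 with MET siRNA. Its log2 ratio of PHA665752 over DMSO was -2.08, a fall of 4.24-fold, and the second probe (A_24_P276102, NM_183404; 173.8, 37.6, 101.9 and 116.2) gave -1.99, or -1.16 under normexp background correction. Both probes were lowest with PHA665752. RBL2 (p130), the pocket protein of resting cells (A_24_P416159, NM_005611), had 909.1 on the DMSO array, 808.5 with PHA665752, and 546.2 with sc siRNA against 564.1 with MET siRNA, so that the inhibitor array stood with DMSO and above both transfected arrays. Its log2 ratio of 0.05 was within the spot noise, and the difference between RBL2 and RBL1 was 2.13.

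**Figure D2:**
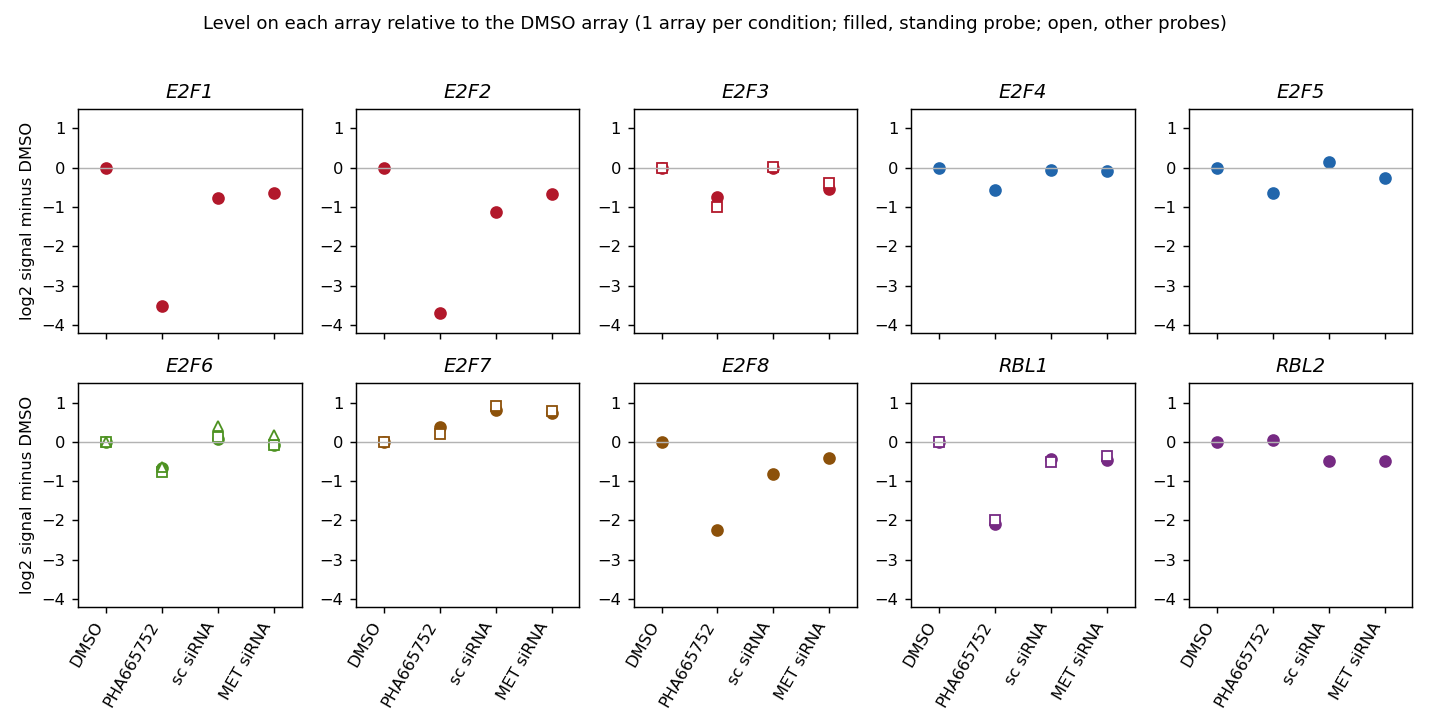
Normalized log2 signal of each member on the DMSO, PHA665752, sc siRNA and MET siRNA arrays minus its value on the DMSO array (log2 units, 1 array per condition), with filled points for the probe that represents the gene and open symbols for its other probes. With PHA665752 the points of E2F1 (-3.52), E2F2 (-3.68), E2F8 (-2.25) and RBL1 (-2.08) lie far below the DMSO level, while those of E2F7 lie above it on the 3 other arrays.

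**Figure D3:**
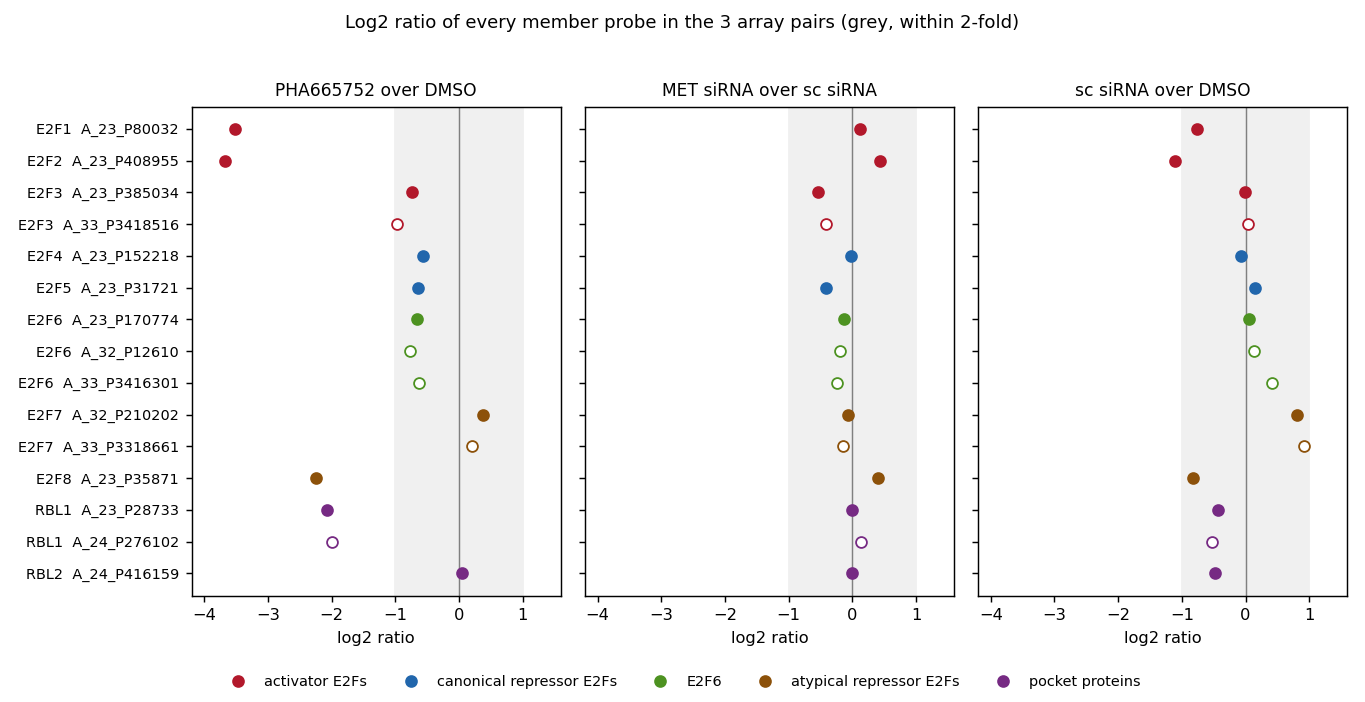
Log2 ratio of all 15 probes of the members in the 3 pairs of arrays, coloured by class, with filled points for the probe that represents the gene and grey for ratios within 2-fold. In the inhibitor pair E2F1, E2F2, E2F8 and both RBL1 probes lie to the left of the grey band, in the siRNA pair no probe leaves it, and in the pair of controls only E2F2 does.

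Activators were then set against canonical repressors, a contrast that does not depend on how an array is scaled by a single number. The median log2 ratio of PHA665752 over DMSO was -3.52 for E2F1, E2F2 and E2F3 and -0.61 for E2F4 and E2F5, a difference of -2.91. With E2F6 counted as a repressor the difference was -2.87. The difference was carried by a part of the class, since E2F1 minus E2F4 was -2.95 and E2F2 minus E2F4 was -3.11, whereas E2F3 minus E2F4 was -0.17. Of the repressors outside the canonical pair, E2F8 (-2.25) lay nearer to E2F1 and E2F2 than to E2F4, and E2F7 lay above E2F4 by 0.94. The split in this pair therefore ran within the activator, atypical and pocket classes, and in each of them part of the members fell past 2-fold.

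MET siRNA was compared with sc siRNA to ask whether lowering MET by another route moved the same genes. The study that reported these arrays found phosphorylated MET to be lowered more effectively by PHA665752 than by knockdown. In the siRNA pair no member passed 2-fold in either direction, beside 0.696% of 13647 genes lower and 2.04% higher. The median of the members was -0.01, compared with -0.017 over all genes. Of all genes past 2-fold in this pair, 74.5% were higher, and 40.2% when arrays were scaled on the median of probes well above background, which moves every ratio by -0.30. The lowest log2 ratios were those of E2F3 (-0.54, 1.45-fold lower, with -0.42 by its weaker probe) and E2F5 (-0.42, 1.34-fold lower), at 3.58% and 6.64% of the genes counted from the lowest. The highest were those of E2F2 (0.44, 1.35-fold higher) and E2F8 (0.41, 1.33-fold higher), at 91.4% and 90.4%. These 4 ratios kept their sign in every way of processing tried.

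For E2F1 the log2 ratio of MET siRNA over sc siRNA was 0.12. That is past the spot noise, which holds for a single spot, while E2F1 was averaged over 9 spots on each of these arrays. The ratio turned to -0.18 under scaling on the median of probes well above background. For E2F4 (-0.02), E2F7 (-0.07) and RBL1 (-0.01) it was within the spot noise, as it was for RBL2, and for E2F6 it was -0.13. Activators minus canonical repressors came to 0.34 in this pair, with E2F3 minus E2F4 at -0.53 and E2F2 minus E2F4 at 0.45. The members that fell past 2-fold with the inhibitor thus had siRNA ratios between -0.01 and 0.44. The inhibitor and siRNA pairs share no array. Whether the response to the inhibitor differed from that to the siRNA was not tested, since neither has a replicate.

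The control arrays differed from each other for several members. In sc siRNA over DMSO, E2F2 was past 2-fold lower (log2 ratio -1.11, 2.16-fold), which made 1 of 10 members, beside 1.16% of 14274 genes, and 0 of 10 were past 2-fold higher, beside 2.89%. E2F8 (-0.83), E2F1 (-0.76), RBL2 (-0.48) and RBL1 (-0.44) were lower as well, at 1.87%, 2.33%, 7.04% and 8.48% of the genes from the lowest. E2F7 was the highest member, with 0.80 (1.74-fold) and 0.92 (1.9-fold) by its probes, at 95.7%. E2F3 (-0.01) and E2F4 (-0.07) were within the spot noise, and E2F5 was at 0.15. The probes of E2F6 gave 0.06, within the spot noise, and 0.13 and 0.41 (1.33-fold higher), past it. Activators minus canonical repressors came to -0.80 between controls, larger in size than in the siRNA pair and of the same sign as in the inhibitor pair. The siRNA ratios of E2F2 and E2F8 were smaller in size than these differences between controls, while the inhibitor ratios of E2F1, E2F2, E2F8 and RBL1 were larger. The siRNA ratios of E2F3 (-0.54) and E2F5 (-0.42) were also larger in size than their differences between controls (-0.01 and 0.15), though within 2-fold. For RBL2 the transfected arrays lay below both others whichever siRNA was used.

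The partners and targets of the family were followed from lists of genes. Over all genes with a ratio, 8.04% were past 2-fold lower and 13.1% higher with PHA665752. In the siRNA pair these shares were 0.696% and 2.04%, and between controls 1.16% and 2.89%. Of the DP proteins, with which E2F1 to E2F6 bind DNA, TFDP1 had a log2 ratio of PHA665752 over DMSO of -1.19 and TFDP2 one of -0.60. TFDP3, read by a dim probe that was not well above background with PHA665752 (31.8 with DMSO and 9.86 with PHA665752), was at least 2.22-fold lower. Of the 3 DP genes, 2 were past 2-fold lower with this bound counted, and 1 with probes well above background on both arrays only, with normexp background correction or with the series matrix. None was past 2-fold in the siRNA pair (median -0.23) or between controls (median -0.17).

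The MuvB complex joins RBL2 and E2F4 on promoters of resting cells, and MYB and FOXM1 proteins on those of dividing cells. Of 6 measured genes of this list of 8, 3 were past 2-fold lower with PHA665752, beside 8.04% of all genes. The median of the list was -0.93. FOXM1, the activator of mitotic genes, was lowest at -1.71, followed by the MuvB subunit LIN9 (-1.32) and MYBL1 (just past 2-fold, with signals of 8155.6 for DMSO and 3509.9 for PHA665752). LIN52 (-0.87) and the histone-binding RBBP4 (-0.05) stayed within 2-fold, and MYBL2, at 0.70, was read by a dim probe (19.7 to 35.2). In the siRNA pair these genes lay between -0.22 and 0.22.

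Of the proteins that work with E2F6 in the Polycomb complex PRC1.6, none of 10 was past 2-fold lower with PHA665752, beside 8.04% of all genes. Past 2-fold higher was 1 of the 10, beside 13.1%, and the median of the list was -0.24. These counts are near the shares over all genes. RING1, a ubiquitin ligase subunit, was at 1.10 and RYBP at 0.96. MAX (0.21), YAF2 (-0.07), MGA (-0.22), L3MBTL2 (-0.27), PCGF6 (-0.45), WDR5 (-0.60), RNF2 (-0.63) and CBX3 (-0.75) made up the others. The partners of E2F6 therefore spanned both sides of E2F6 itself (-0.66). In the siRNA pair their median was -0.17 and none passed 2-fold.

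Of the genes whose products mark E2F proteins for degradation, 3 of 4 were measured. SKP2, part of a ligase that acts on E2F1, had a log2 ratio of PHA665752 over DMSO of -1.62. CCNF, cyclin F, gave -1.29 with a dim probe (16.1 to 45.4), and FZR1, a subunit of the anaphase-promoting complex, gave 0.11. CCNF was also the gene of this list that differed most between controls (-0.96).

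The G1/S targets of E2F were lower together with E2F1 and E2F2. Of 22 measured genes of 24, 20 were past 2-fold lower with PHA665752 and none was past 2-fold higher, with all 22 below 0 and a median of -2.75 compared with 0.075 over all genes. The lowest were RRM2, which makes deoxynucleotides (-4.23), CDC45 of the replicative helicase (-3.92) and UHRF1, which keeps DNA methylation (-3.54). The highest were CCNE1, cyclin E1 (-0.56), and SLBP, the histone mRNA binding protein (-0.77). In the siRNA pair none of the 22 passed 2-fold and 11 lay below 0. Between controls none passed 2-fold, though 21 of 22 lay below 0 with a median of -0.55.

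The G2/M genes, which the MuvB complex and FOXM1 control, fell as well. All 19 measured genes of 20 were past 2-fold lower with PHA665752, with a median of -1.61 and a range from -2.44 to -1.07, and 18 of 19 under quantile normalization. CDK1, the mitotic kinase (-2.44), AURKB (-2.27) and CCNA2, cyclin A2 (-2.26), were the lowest, and CENPF (-1.07) and NUSAP1 (-1.10) the highest. In the siRNA pair the median was 0.14, with 2 of 19 below 0 and none past 2-fold. Between controls the median was -0.47 with all 19 below 0. In bulk RNA, fewer cells in S phase or mitosis and less of these transcripts per cell cannot be told apart.

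Upstream of the pocket proteins, cyclins, kinases and their inhibitors moved both ways with PHA665752, with a median of -0.01. Of 12 measured genes (of 13), 4 were past 2-fold lower, beside 8.04% of all genes. Past 2-fold higher were 2, beside 13.1%, which is near that share. CDK2 (-1.89), CCND1, cyclin D1 (-1.62), and CCND3, cyclin D3 (-1.50), were the lowest. CDKN1C, the inhibitor p57 (1.93), and CCND2, cyclin D2 (1.29), were the highest. The D cyclins thus did not move as a class. In the siRNA pair none of the 12 passed 2-fold, and CDK2, CCND1 and CCND3 were at 0.06, -0.21 and -0.08.

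**Figure D4:**
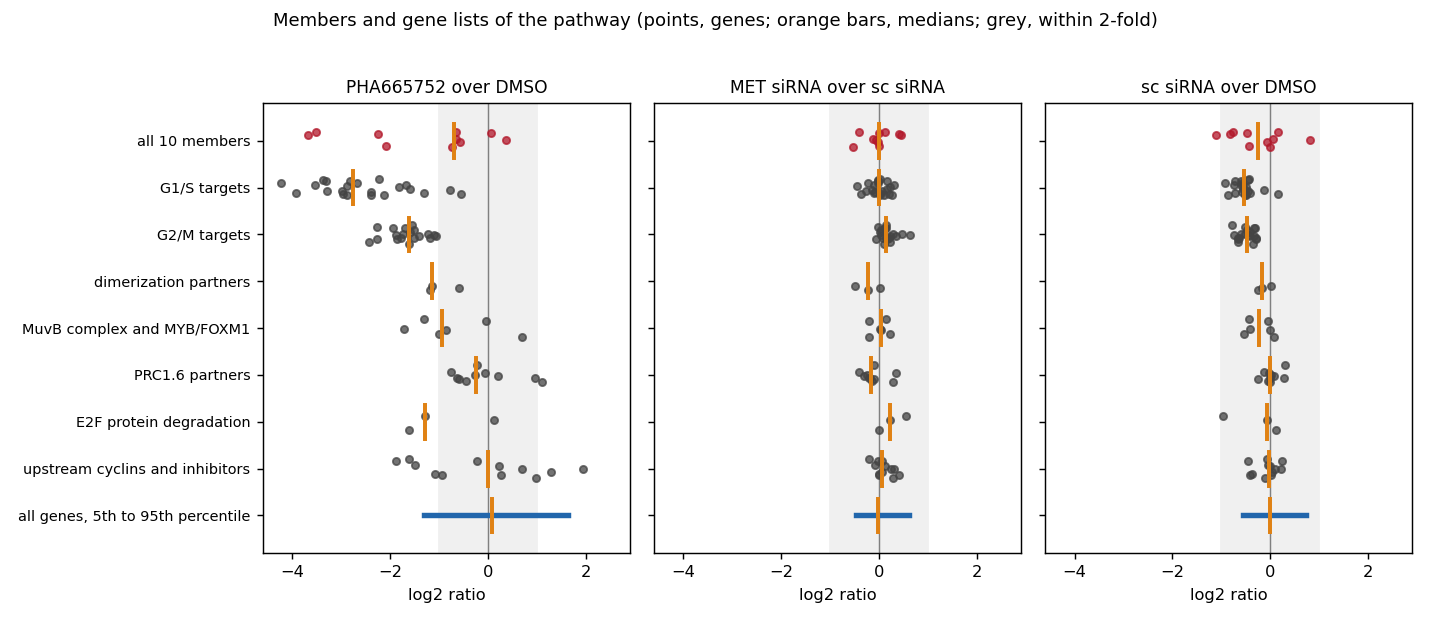
Log2 ratios of the 10 members and of the genes of 7 lists in the 3 pairs of arrays (points, genes; orange bars, medians; grey, within 2-fold), with the 5th to 95th percentile of all genes as a blue bar. In the inhibitor pair the G1/S genes have a median of -2.75 and the G2/M genes one of -1.61, where all genes run from -1.32 to 1.63, and in the other pairs the only point past 2-fold is that of E2F2 between the controls.

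The genes whose 4 levels were most like those of E2F1 were sought among 13073 named genes well above background on every array, by Euclidean distance between log2 values centred on their own mean. They were EXO1 (0.129), GINS2 (0.151), TCF19 (0.158), UHRF1 (0.189) and CCNE2 (0.192). Of the members, E2F2 was the 11th nearest to E2F1 (0.277), E2F8 the 140th (1.081) and RBL1 the 153rd (1.121), and the next member was E2F6 at rank 1668. The nearest to RBL2 were FCHO2 (0.039), TMEM151B (0.042), FNBP1 (0.046), UNC119B (0.049) and SPOPL (0.050), at distances below the spot noise of a ratio, so their order carries no information. These likenesses rest on 4 arrays, 1 per condition.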

How the data were processed

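Total RNA of Hs746T cells under 4 conditions was labelled and hybridised to single-colour Agilent human 44K (V2) arrays, 1 per condition. The deposited scanner files came from Feature Extraction 11.5.1.1 (per the file headers), whose processed signal is a linear intensity, background-subtracted and spatially detrended, with no normalization between arrays. The deposited series matrix held the same intensity for the 33128 probes spotted once, within 0.06, and served as an alternative.

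Control spots and spots marked as outliers were dropped, log2 values were averaged over the spots of each probe, and each array had its 75th percentile subtracted. A probe was well above background if no fewer of its spots had this mark of the software than lacked it. If this held on 1 array of a pair only, the ratio was a bound against the higher of the signal of the dim probe and the lowest signal well above background (10.2 to 17.4), and if on neither, no ratio was formed. Probes were named from RefSeq accessions (GRCh38.p14 table, names only), which covered 75.5% of 34117 probes, and promoter windows came from RefSeq of the same build. Spot noise came from probes with at least 5 usable spots of 10 (755 to 782 probes per array), whose median SD was 0.0531 to 0.0589.

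No replicate arrays exist among those analysed, so no test, SD between replicates or p-value is given, and precision is limited by the number of arrays. The members, the lists and the classes (activators, canonical repressors, E2F6, atypical repressors, pocket proteins) were chosen with earlier results of these data known. The lists were dimerization partners, the MuvB complex with MYB and FOXM1, PRC1.6 partners, E2F degradation, G1/S targets, G2/M targets, upstream cyclins and inhibitors, E2F1 apoptosis targets and germline genes, beside markers of cell types. All probes of the members were named, as were all measured genes of the first 4 lists, the 3 lowest and 2 highest genes with PHA665752 of each of the others, and the 5 nearest genes to E2F1 and to RBL2. A few genes that this rule or the marker lists would name are not reported here. The germline genes without a ratio were named after their values were seen.

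The alternatives were scaling to the 50th percentile or to the median of probes well above background, quantile normalization, normexp (offset 50) as background correction, no filter on dim probes, restriction to probes well above background on both arrays, outlier marks ignored, the series matrix, the median of all probes of each gene, and E2F6 among the repressors. The ratio rule was tried on simulated arrays whose planted changes were all past the 2-fold cut and none in dim probes. The bounds for changes in dim probes were therefore not tested. The normexp step was run with limma 3.58.1 in R 4.3.3, and all other steps in Python 3.11.15 with pandas 2.3.3 and numpy 2.4.6, with figures by matplotlib 3.10.9.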

Additional observations from a re-analysis of the deposited data

How the results depend on the processing

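The counts of members past 2-fold did not change in any pair under the alternatives, and no called ratio changed sign. The sign of 10 of 45 ratios of single member probes turned, all of them ratios within 2-fold, and these have no direction of their own. No paired analysis was possible because each condition has 1 array. With normexp background correction, which adds a constant of 50 to every signal and so draws the ratios of dim probes together, the difference between activators and canonical repressors in the inhibitor pair was -2.46, the probes past 2-fold numbered 2482 in the inhibitor pair, 118 in the siRNA pair and 349 between controls (4753, 628 and 991 otherwise), and of the genes past 2-fold with PHA665752 the lower dimerization partners were 1, the lower E2F degradation genes 0 and the higher upstream cyclins and inhibitors 1. Without a filter on dim probes, 1954 probes passed in the siRNA pair and 2442 between controls, and 1 germline gene was past 2-fold higher in the inhibitor pair and 1 between controls. With probes well above background on both arrays only, these probes were 291 and 614, and with outlier marks ignored 956 passed in the siRNA pair. The lower dimerization partners with PHA665752 were also 1 with probes well above background on both arrays only and with the series matrix. Under the 50th percentile 0 PRC1.6 partners were past 2-fold higher with PHA665752, and between controls 1 E2F degradation gene (as under quantile normalization) and 1 G1/S target were past 2-fold lower. The cause of these moves was not tested apart from normexp and the filters, which act by construction. The weaker RBL1 probe (37.6 with PHA665752), the weaker E2F3 probe (51.9), E2F8 (56) and E2F2 (69) lay nearest to the background. Their ratios were smaller in size under normexp, at -1.16, -0.48, -1.31 and -2.96 in that order.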

Other observations

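E2F1 is also known as a driver of apoptosis genes, which were followed from a list. Of 8 such genes, 7 had a ratio. With PHA665752, 0 were past 2-fold lower, beside 8.04% of all genes, and 1 was past 2-fold higher, beside 13.1%. The median log2 ratio was 0.03 compared with 0.075 over all genes, so the list stood near the array as a whole. BBC3, which encodes the BH3-only protein PUMA, had a processed signal of 855.4 on the DMSO array, 2481.5 with PHA665752, and 1042.8 with sc siRNA against 1970.9 with MET siRNA, and log2 ratios of 1.75 for the inhibitor, 0.87 for the siRNA and 0.54 between controls. Both treated arrays were thus above both controls. BCL2L11, which encodes BIM, was at 0.46 with the inhibitor and 0.38 with the siRNA. PMAIP1, which encodes NOXA, was at -0.04 with the inhibitor and 0.43 with the siRNA. In the siRNA pair the median of the list was 0.38 and between controls 0.17, and none passed 2-fold.

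E2F6 is known to keep germline genes silent in body cells. Of 10 such genes, 9 were on the array and 2 had a ratio with PHA665752, STAG3 (-0.03) and TDRKH (0.56), with 0 past 2-fold in either direction in any pair. So few genes cannot be read against the shares over all genes (8.04% lower and 13.1% higher with PHA665752). Medians were 0.26 in the inhibitor pair and -0.01 in the siRNA pair, over 2 genes each. Between controls the median was 0.41 over 3 genes, of which HORMAD1 (at least 0.78) was a bound. SMC1B, SLC25A31, MAEL, DDX4, DAZL and SYCP3 were not well above background on any array, and HORMAD1 was so on 1 array, that of sc siRNA, with a processed signal of 15.6.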
